A study of Mus musculus with 5 samples.

Results

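The interferon regulatory factors are a family of transcription factors, and 8 of them, Irf1, Irf2, Irf3, Irf4, Irf5, Irf7, Irf8 and Irf9, were followed here in mouse glioma and normal mouse brain. They were found as the probes whose RefSeq accession belongs to one of these symbols, which gave 8 of 21149 named genes. Of these, 7 were well above background on at least 2 arrays and were tested among 16891 genes, and Irf4 was not. The tumours were 3 gliomas from a mouse model that uses mosaic analysis with double markers (MADM), a method in which recombination in dividing cells leaves sparse, colour-marked mutant cells. They were compared with 2 samples of normal brain. All 5 samples were taken at 150 days of age, and total RNA of each was hybridised to 1 single-colour Agilent array. The labels name no mutated gene, driver of recombination, strain, sex or brain region. They do not say whether the replicates are separate animals, so p-values reflect only how far these samples differ, which may be partly technical.

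The arrays carried 55681 probes, and between 65.9% and 70.3% of spots were well above background on the glioma arrays, against 61.5% and 64% on the normal brain arrays. Across 14859 genes detected on every array, correlations were 0.974 to 0.982 among gliomas, 0.996 between the normal brain samples and 0.857 to 0.874 between the groups. Levels are log2 processed signals, each relative to its array's 75th percentile, and a change is the mean glioma level minus the mean normal brain level. Of the 16891 genes, 8687 (51.4%) passed the threshold of an adjusted p under 0.05. Of these calls 46% were higher in glioma, and 63.7% were in the authors' unscaled table. Brain tissue was checked by its markers, and all listed neuron, astrocyte, oligodendrocyte and progenitor markers were detected on every array. All 6 neuron markers fell in glioma, with a median change of -3.25, and all 5 oligodendrocyte progenitor markers rose, with a median of 4.49. Of the astrocyte markers 2 of 5 fell, and of the mature oligodendrocyte markers 4 of 5 fell. Each count was lower in a fit that left 1 normal brain sample, where fewer genes were called among all tested genes. The summed level of mature oligodendrocyte markers was 92.4, 301 and 34.8 in gliomas 1 to 3, against 285 and 308 in normal brain. The gliomas differed among themselves: Xist, transcribed from the inactive X chromosome, was well above background on the glioma 3 array, and the Y-linked Ddx3y on all the others. By these genes glioma 3 was female and the other samples male, so glioma 3 came from another animal than gliomas 1 and 2. Sex thus differed within the glioma group. The gliomas lay in 1 row of the slide and the normal brain samples in the other, so slide row and group cannot be told apart.

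All members of the family share a DNA-binding domain that recognises GAAA repeats. Irf3, Irf5 and Irf7 lie latent in the cytoplasm until kinases downstream of nucleic acid sensors and Toll-like receptors phosphorylate them, and they then switch on type I interferon genes. Secreted interferon signals through Janus kinases to STAT factors, which join Irf9 in the complex ISGF3 and bind the interferon-stimulated response element (ISRE). Interferon-gamma acts through the gamma-activated site (GAS), and Irf1 is one of its classical targets. Irf1 activates and Irf2 mostly represses overlapping sets of genes, while Irf4 and Irf8 work in lymphoid and myeloid cells with partner proteins such as PU.1 and Batf. In the brain, Irf8 is known as a factor of microglia.

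RefSeq promoter windows were available for all 8 genes, each running from 250 bases before the annotated start to 50 bases after it (build GRCm38.p6). They were searched on both strands for the ISRE core GAAANNGAA and the GAS motif TTCNNNGAA. The windows of the 4 factors that rose in glioma and of Irf2, the window with matches to both motifs, are shown with matches in capitals. Only the window at the first listed start is shown for Irf1, Irf8 and Irf9, whose second window held no match.
Irf1, chr11:53769764-53770063 (plus strand): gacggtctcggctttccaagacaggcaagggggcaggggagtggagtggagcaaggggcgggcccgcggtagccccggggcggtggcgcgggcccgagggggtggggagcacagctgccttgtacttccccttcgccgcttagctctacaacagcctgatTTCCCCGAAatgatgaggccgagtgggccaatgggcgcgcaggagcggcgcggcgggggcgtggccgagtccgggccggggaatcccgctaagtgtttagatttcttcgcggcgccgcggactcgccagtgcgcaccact
Irf8, chr8:120736108-120736407 (plus strand): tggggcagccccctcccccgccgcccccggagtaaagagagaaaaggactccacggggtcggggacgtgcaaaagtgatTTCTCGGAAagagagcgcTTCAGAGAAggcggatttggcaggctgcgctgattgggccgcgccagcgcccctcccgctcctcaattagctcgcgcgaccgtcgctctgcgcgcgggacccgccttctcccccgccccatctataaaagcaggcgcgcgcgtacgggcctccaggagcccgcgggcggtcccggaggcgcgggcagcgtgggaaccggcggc
Irf2, chr8:46739495-46739794 (plus strand): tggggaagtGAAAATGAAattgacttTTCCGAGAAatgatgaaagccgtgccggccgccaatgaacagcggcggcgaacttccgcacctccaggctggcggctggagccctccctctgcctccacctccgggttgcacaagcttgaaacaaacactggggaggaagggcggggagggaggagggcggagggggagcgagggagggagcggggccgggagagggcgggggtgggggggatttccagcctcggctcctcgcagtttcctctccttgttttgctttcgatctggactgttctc
Irf7, chr7:141266375-141266674 (minus strand): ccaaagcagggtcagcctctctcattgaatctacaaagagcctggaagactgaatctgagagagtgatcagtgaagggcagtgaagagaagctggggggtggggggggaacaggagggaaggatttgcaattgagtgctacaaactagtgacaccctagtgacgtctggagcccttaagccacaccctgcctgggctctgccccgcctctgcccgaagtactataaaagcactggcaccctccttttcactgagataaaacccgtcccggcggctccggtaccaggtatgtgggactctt
Irf9, chr14:55603735-55604034 (plus strand): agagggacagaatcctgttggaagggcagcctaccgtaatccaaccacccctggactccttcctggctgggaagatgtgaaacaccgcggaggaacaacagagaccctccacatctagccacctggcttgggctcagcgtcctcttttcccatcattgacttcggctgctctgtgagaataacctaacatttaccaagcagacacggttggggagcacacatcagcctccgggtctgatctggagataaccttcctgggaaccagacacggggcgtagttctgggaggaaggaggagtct

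The Irf1 window held 1 GAS match, beginning 90 bases before the start. The Irf8 window held 2, beginning 171 and 153 bases before the start. The Irf2 window held an ISRE core match 241 bases and a GAS match 224 bases before the start. No match to these letters lay in the windows of Irf3, Irf4, Irf5, Irf7 or Irf9. Among all 32851 mouse windows, the ISRE core was found in 8.56% and the GAS motif in 8.3%. A match describes the sequence and does not show that a factor binds there.

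Of the 7 detected factors, 4 rose in glioma (Irf1, Irf7, Irf8 and Irf9) and 0 fell. Among all tested genes 23.6% rose and 27.8% fell. In 5 of the 7, every glioma was above both normal brain samples, as in 35.2% of all genes. Groups without overlap in either direction made up 74.1% of all genes. In 4 of the 7, the lowest glioma was at least 2-fold above the higher normal brain sample, as in 11.3% of all genes. The remaining 3 detected factors, Irf2, Irf3 and Irf5, did not pass the test.

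**Figure D1:**
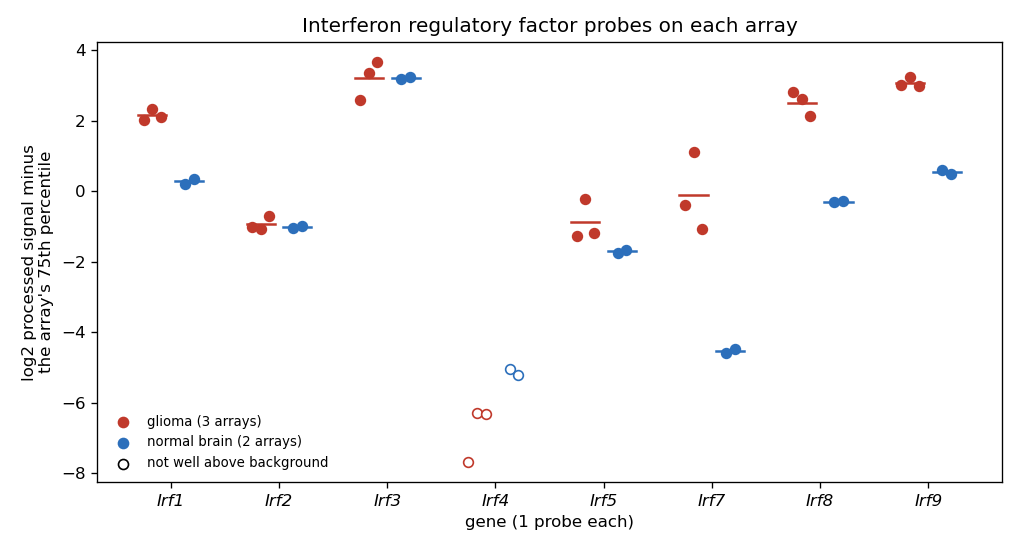
Level of each factor on each array, on the log2 scale and relative to the array's 75th percentile, with gliomas in red, normal brain in blue and group means as bars. Irf1, Irf5, Irf7, Irf8 and Irf9 show no overlap between the groups, and the open Irf4 points did not stand well above background on any array.

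Irf9, the DNA-binding subunit of ISGF3, had levels of 3.02, 3.24 and 2.99 in gliomas 1 to 3, against 0.61 and 0.49 in the normal brain samples. The gliomas lay close together and far above normal brain. The change was 2.54 ± 0.15 (SE, n = 3 and 2), which is 5.8-fold, with a 95% interval of 2.15 to 2.92 and an adjusted p of 0.000458 by limma. Its SD among gliomas was 0.13, below the median of 0.26 over all genes, and 95.1% of tested genes had a smaller signed change.

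Irf7, the factor that amplifies type I interferon production and is itself induced by ISGF3, had the largest change in the family. Its levels were -0.39, 1.12 and -1.06 in gliomas 1 to 3, against -4.59 and -4.47 in normal brain. Glioma 2 was highest, and even glioma 3, the lowest, was 10.7-fold above the higher normal brain sample. The change was 4.42 ± 0.65, or 21.5-fold with a 95% interval of 6.78-fold to 68-fold (adjusted p = 0.00423, limma). The gliomas spanned 4.54-fold, and their SD of 1.12 exceeded that of 96.7% of genes. The normal brain signals were dim, at 30.1 and 33.5 units. With normexp background correction, which here adds an offset of 50 units to every signal, the log2 change was 3.04. Without glioma 2 it was 3.81, and the call held in both cases.

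Irf8, a factor of myeloid cells, had levels of 2.81, 2.61 and 2.14 in gliomas 1 to 3, against -0.31 and -0.27 in normal brain. Every glioma was at least 5.31-fold above normal brain, and glioma 3 was the lowest of the gliomas. The change was 2.81 ± 0.23, which is 7-fold (95% interval 2.21 to 3.40 on the log2 scale, adjusted p = 0.000802, limma).

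Irf1, the activator induced by interferon-gamma, had levels of 2.01, 2.34 and 2.11 in gliomas 1 to 3, against 0.21 and 0.35 in normal brain. The gliomas differed little from each other, with a spread of 1.26-fold. The change was 1.87 ± 0.16, or 3.66-fold (95% interval 1.46 to 2.29 on the log2 scale, adjusted p = 0.000902, limma). A second Irf1 probe, designed to another transcript, was near background on all 5 arrays and was not used.

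Irf5, which acts downstream of Toll-like receptors, had levels of -1.25, -0.22 and -1.18 in gliomas 1 to 3, against -1.74 and -1.67 in normal brain. All gliomas were above normal brain, but glioma 2 stood 1.00 log2 units above the mean of the other gliomas. The change of 0.82 ± 0.35 did not pass the test (95% interval -0.08 to 1.72, adjusted p = 0.108, limma). These data leave a range that runs up to 3.3-fold higher in glioma.

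Irf2, the repressor that competes with Irf1, had levels of -1.02, -1.05 and -0.70 in gliomas 1 to 3, against -1.04 and -0.99 in normal brain. The groups overlapped. The change was 0.09 ± 0.17 with a 95% interval of -0.34 to 0.52 (adjusted p = 0.671, limma). The interval excludes a change as large as that of Irf1.

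Irf3, the factor that starts the first wave of interferon-beta transcription, had levels of 2.60, 3.35 and 3.66 in gliomas 1 to 3, against 3.19 and 3.24 in normal brain. Glioma 1 lay below both normal brain samples, while gliomas 2 and 3 lay above them. The mean change was -0.01 ± 0.33 (95% interval -0.86 to 0.85, adjusted p = 0.987, limma), and without glioma 1 it was 0.29 (adjusted p = 0.214). The gliomas spanned 2.08-fold, against 1.03-fold between the normal brain samples.

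Irf4, a factor of B cells, plasma cells and T cells, was never well above background on these arrays and was not tested. Its processed signals were 4.42, 13.6 and 10.8 units in gliomas 1 to 3, against 22 and 20.3 units in normal brain. The lowest signal well above background was between 12.2 and 17.7 units on the glioma arrays, against 13.4 and 19.1 units on the normal brain arrays. The normal brain signals of Irf4 were above these lowest values, yet the authors' software did not flag them as well above background. No fold is given for it.

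**Figure D2:**
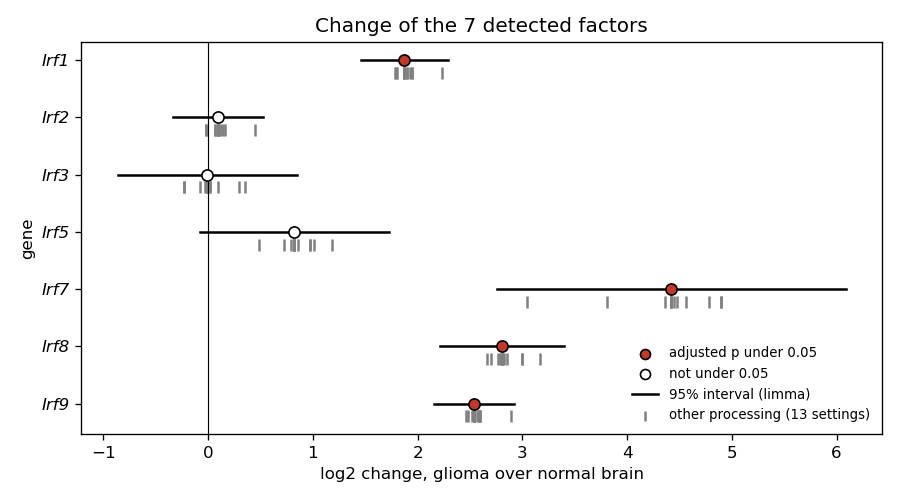
Log2 change of the 7 detected factors, glioma over normal brain, with limma's 95% interval and with the value under each of 13 other processing settings as ticks below it. Irf1, Irf7, Irf8 and Irf9 lie above 0 throughout, and the intervals of Irf2, Irf3 and Irf5 include 0.

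The gliomas were not ordered alike in all factors. Glioma 2 was the highest in 4 of the 7 detected factors (Irf1, Irf5, Irf7 and Irf9), against 27.6% of all tested genes. Irf8 was highest in glioma 1, and Irf2 and Irf3 in glioma 3. Relative to the mean of the other gliomas, glioma 2 was higher by 1.85 in Irf7, 1.00 in Irf5, 0.28 in Irf1 and 0.23 in Irf9. The order glioma 2, glioma 1, glioma 3 was found in 2 factors, Irf7 and Irf9, against 16.3% of all tested genes.

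Genes around Irf3 differed between the gliomas in the same order as Irf3 itself, lowest in glioma 1 and highest in glioma 3 by their medians. Glioma 1 was 0.90 below the mean of gliomas 2 and 3 in Irf3, and 18 of the 20 nearest tested genes, 10 on each side, also deviated downward, with a median of -0.59. Over the 100 nearest genes detected on all arrays, 50 on each side, 76% deviated downward (median -0.43). Glioma 3 deviated upward from gliomas 1 and 2 there, with a median of 0.58. Relative to the mean of normal brain, the median of these 100 genes was -0.24, -0.03 and 0.35 in gliomas 1 to 3, against -0.06, -0.09 and -0.09 over all genes. The share that deviated downward in glioma 1 was 44.8% over all 14859 such genes (median 0.04) and 62% over the 1188 on chromosome 7. Around Irf7, on the same chromosome, 35% deviated downward (median 0.16). These medians combine a low glioma 1 and a high glioma 3. The window of 100 genes was chosen after these values were seen, and neighbours on a chromosome are not independent, so no test is given. Whether the DNA of this region differs between the gliomas was not measured.

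**Figure D3:**
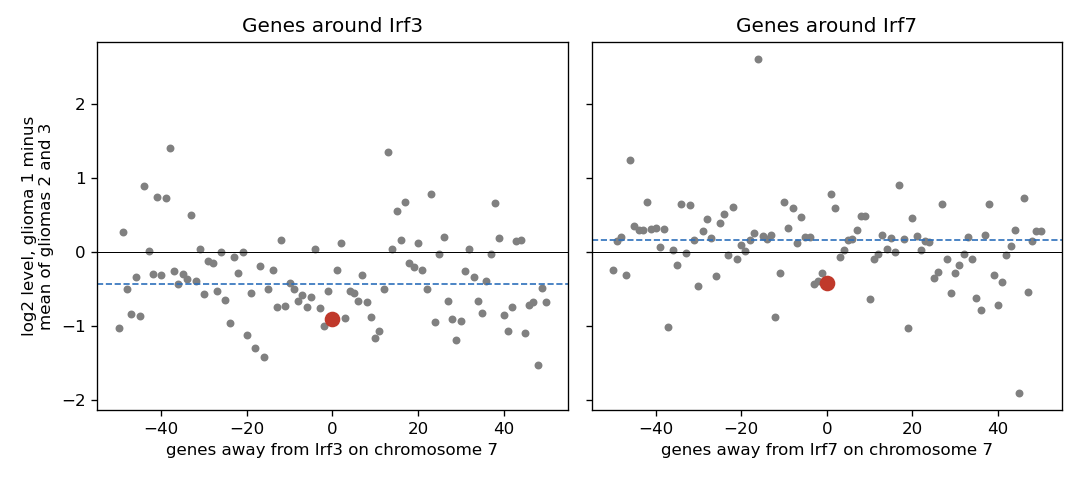
Level in glioma 1 minus the mean of gliomas 2 and 3 (log2) for the 50 genes on each side of Irf3 and of Irf7 in chromosome order, with the factor in red and the median of its neighbours dashed. Most points around Irf3 lie below 0, with a median of -0.43, and around Irf7 the median is 0.16.

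The genes next to the factors that rose did not all rise. Beside Irf1, Rad50 had a change of 0.54 (adjusted p = 0.097) and Gm12216 rose by 1.56 (adjusted p = 0.00116). Beside Irf8, the respiratory subunit gene Cox4i1 fell by 0.64 (adjusted p = 0.0239) and Foxf1, a forkhead factor, rose by 3.15 (adjusted p = 0.00228). Neither neighbour of Irf7 passed, Phrf1 at -0.30 (adjusted p = 0.177) and Cdhr5 at 0.51 (adjusted p = 0.554). Of the 20 genes nearest to Irf7, 0 rose and 10 fell, with a median change of -0.83. Around Irf8, 5 of the 20 nearest rose and 10 fell, with a median of -0.52. Over all tested genes, 23.6% rose and 27.8% fell. Beside Irf9, Rnf31 had a change of 0.26 (adjusted p = 0.199) and Rec8 one of -1.84 (adjusted p = 0.424), Rec8 being 5.35 log2 units higher in glioma 1 than in the mean of the other gliomas. On one side of Irf2, Enpp6 fell by 1.01 (adjusted p = 0.0483).

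The profile over the 5 arrays most like each factor was sought among 14859 genes, as the smallest root mean square difference of the centred log2 levels. For Irf7 these were Oas1f and the ubiquitin-like Isg15, an interferon-stimulated gene, at 0.19 and 0.21. For Irf8 they were Cenpp and Aard, both at 0.066, and for Irf9 Vsig10 and Lims2 at 0.07 and 0.073. For Irf1 they were Chrdl1 and Hmgn2 at 0.031 and 0.06, and for Irf5 Arhgap45 and Fes at 0.033 and 0.043. For Irf2 they were Zfp354c and Cdk13 at 0.012 and 0.022, and for Irf3 Rnaseh2c and Gpr25 at 0.04 and 0.045. Irf7, the factor with the widest range, had the largest distances.

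Of 11 interferon ligand genes, 5 were tested, 5 were on the array but detected on fewer than 2 arrays, and 1 was not named there. Ifng was well above background on 0 arrays and Ifnb1 on 1. None of the 5 rose and 1, the lambda interferon Ifnl3, fell by 0.99 ± 0.16 (adjusted p = 0.00582, limma). The alpha interferons Ifna1, Ifna2, Ifna5 and Ifna11 had changes of -0.49, 0.15, 0.21 and 0.33 and did not pass, and their near-identical copies may share probes. No ligand was called lower in the fits that left 1 normal brain sample, which called fewer genes among all tested genes. Without glioma 3, 2 ligands were called lower, and without glioma 1, 1 ligand was called higher.

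Among the receptors, Janus kinases and STAT factors, 5 of 11 rose and 1 fell, with a median change of 0.71, against -0.05 over all genes. The receptor chain Il10rb rose by 1.28 ± 0.18 (adjusted p = 0.00356) and the interferon-gamma receptor chain Ifngr1 by 0.96 ± 0.18 (adjusted p = 0.0101). The Irf9 partner Stat2 had levels of 1.42, 2.16 and 1.72 in gliomas 1 to 3, against 0.81 and 0.99 in normal brain, and rose by 0.87 ± 0.25 (adjusted p = 0.0383). The kinase Jak1 fell by 0.75 ± 0.14 (adjusted p = 0.00852). Fewer of the 11 were called in the fits that left 1 normal brain sample, as among all tested genes.

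Of the 17 adaptors and kinases that act upstream of Irf3, Irf5 and Irf7, 8 rose and 0 fell (median 0.44). The kinase Irak4, not well above background in normal brain, was at least 5.09-fold higher in glioma. Its adjusted p of 0.00176 (limma) is for the levels as measured, not for this lower bound. Such a bound sets the glioma mean against, on each normal brain array, the gene's own level or the lowest level well above background, whichever is higher. The DNA-sensing adaptor Sting1 rose by 2.42 ± 0.49 (adjusted p = 0.0118) and the Toll-like receptor chaperone Unc93b1 by 1.74 ± 0.35 (adjusted p = 0.0113). The kinase Tbk1, which phosphorylates Irf3, had a change of -0.28 (adjusted p = 0.192), and Ikbke, detected in 2 gliomas and in 0 normal brain samples, one of 0.14 (adjusted p = 0.831). Fits that left 1 normal brain sample called fewer of the 17 higher, as among all tested genes, and 1 gene fell without glioma 1.

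Among 12 inhibitors of interferon signalling and corepressors of the family, 7 rose and 2 fell (median 0.67). Usp18, a protease that dampens the type I interferon receptor, rose by 5.24 ± 0.42 (adjusted p = 0.000756), and the signalling inhibitor Socs3 by 2.48 ± 0.20 (adjusted p = 0.000769). The phosphatase Ptpn6 rose by 2.08 ± 0.41 (adjusted p = 0.0108). Of the Irf2 corepressors, Irf2bpl rose by 0.81 ± 0.23 (adjusted p = 0.0329) and Irf2bp2 by 0.52 ± 0.16 (adjusted p = 0.0448), while Irf2bp1 had a change of -0.21 ± 0.20 (adjusted p = 0.423). The ubiquitin ligase subunit Rbck1 fell by 0.84 ± 0.14 (adjusted p = 0.00602). With 1 normal brain sample left, fewer of the 12 were called, as among all tested genes. Without glioma 2, 1 of the 12 fell.

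The ISGF3 targets rose nearly throughout: 17 of 18 tested genes rose and 0 fell, with a median change of 3.43. The array named 18 of the 20 listed genes. The antiviral Oasl1 rose by 5.82 ± 0.58 (adjusted p = 0.00128), Oas1a by 5.16 ± 0.64 (adjusted p = 0.00243) and Rtp4 by 4.85 ± 0.33 (adjusted p = 0.000548). Glioma 2 was the highest glioma in 17 of the 18, and 12 followed the order glioma 2, glioma 1, glioma 3 seen in Irf7, as did 11 of 14 microglia and macrophage markers. The summed level of the list was 85.7, 167 and 68.4 in gliomas 1 to 3, against 5.77 and 7.26 in normal brain, in units of the array's 75th percentile. Xaf1 did not pass (0.92, adjusted p = 0.167).

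Of the interferon-gamma and Irf1 targets, 14 of 19 tested genes rose and 0 fell (median 2.36). Nlrc5, an activator of MHC class I genes, rose by 6.28 ± 0.39 (adjusted p = 0.000503) and the chemokine Cxcl10 by 6.27 ± 1.00 (adjusted p = 0.00547), both detected in 1 of the 2 normal brain samples. The immunoproteasome subunit Psmb8 rose by 4.67 ± 0.25 (adjusted p = 0.000403). Glioma 2 was highest in 12 of the 19. The summed level was 215, 219 and 166 in gliomas 1 to 3, against 36.9 and 40.2 in normal brain. B2m alone made 62.9%, 51.8% and 56.4% of it in gliomas 1 to 3. Without B2m the sum was 79.9, 105 and 72.4 in gliomas 1 to 3, against 27.8 and 30.9 in normal brain. Gbp4, Psmb10, Tapbp, Ciita and Cd274 did not pass, with changes of 0.09 to 1.11.

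**Figure D4:**
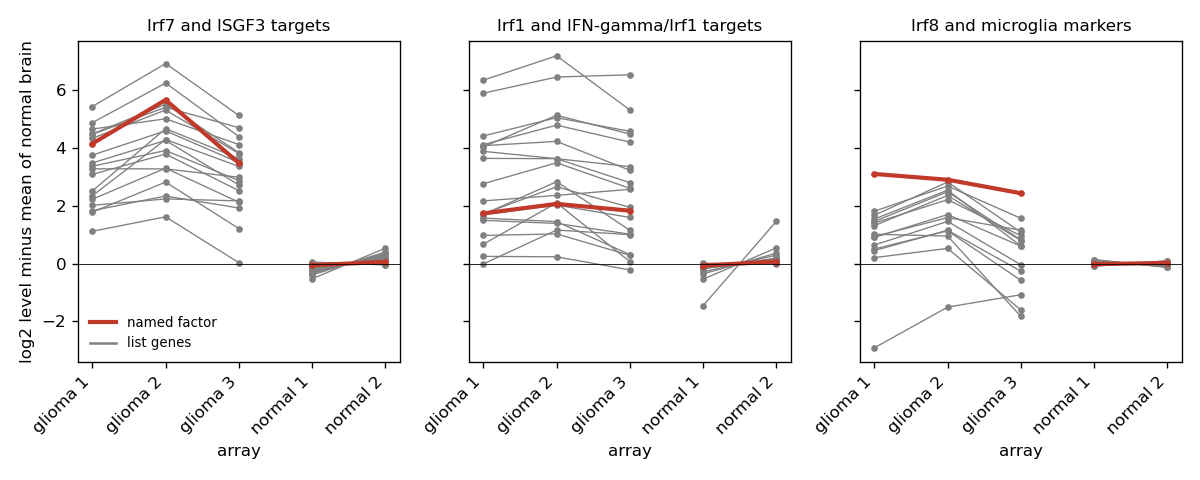
Level of each listed gene on each array minus its mean in normal brain (log2), with Irf7 beside the ISGF3 targets, Irf1 beside the interferon-gamma and Irf1 targets, and Irf8 beside the microglia and macrophage markers. Glioma 2 is the highest glioma in 17 of the 18 ISGF3 targets and in 12 of the 14 microglia and macrophage markers, and Irf8 is highest in glioma 1.

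Of the DNA-binding partners of Irf4 and Irf8, 5 of 8 tested genes rose and 0 fell (median 1.43, or 1.28 with Spi1 at its lower bound). Batf, which recruits Irf4 and Irf8 to composite sites in lymphoid cells, had levels of 0.43, -0.18 and -0.77 in gliomas 1 to 3, against -4.74 and -4.65 in normal brain, and rose by 4.52 ± 0.37 (adjusted p = 0.000766). Spi1, which encodes PU.1, was at least 2.29-fold higher in glioma, being not well above background in normal brain. Its adjusted p of 0.0119 (limma), by which it counts among the 5, is for the levels as measured, not for this bound. Glioma 3, at -5.35, lay below the lowest level well above background on the normal brain 2 array, -5.30. Batf3 rose by 2.07 ± 0.41 (adjusted p = 0.0111). The count of partners that rose was lower with 1 normal brain sample left, as among all tested genes, and 1 partner fell without glioma 1.

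Markers of the cells in which Irf8 and Irf4 are usually found were set beside the factors. Of 14 microglia and macrophage markers, 6 rose and 1 fell (median 1.14). The complement gene C1qa rose by 2.02 ± 0.36 (adjusted p = 0.00805) and the lysosomal Cd68 by 1.86 ± 0.52 (adjusted p = 0.0333), while the integrin Itgam fell by 1.83 ± 0.56 (adjusted p = 0.0439). The homeostatic microglia genes Cx3cr1, Csf1r, Tmem119 and P2ry12 did not pass, with changes of 0.35, 0.44, 0.68 and -0.29. The summed level was 138, 251 and 107 in gliomas 1 to 3, against 112 and 116 in normal brain. Itgam carried much of the normal brain sum, and without it the sum was 133, 235 and 85.9 in gliomas 1 to 3, against 68.6 and 71 in normal brain. In gliomas 1, 2 and 3, 13, 13 and 8 of the 14 markers were above both normal brain samples. Without glioma 1, 2 of the 14 rose. Fewer than 6 also rose with 1 normal brain sample left, where fewer genes rose among all tested genes too. Itgam was not called without glioma 2 or without either normal brain sample, nor with quantile normalization, the authors' unscaled table or the mean of detected probes. In bulk RNA, fewer cells of a type and less RNA per cell cannot be told apart.

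Of 9 B cell and plasma cell markers, 3, among them Ms4a1 and Pax5, were detected on fewer than 2 arrays, and of the 6 tested, 3 rose and 1 fell. The summed level was 0.767, 0.725 and 0.625 in gliomas 1 to 3, against 0.332 and 0.379 in normal brain. Cr2 alone made 64%, 44.8% and 34.4% of it in gliomas 1 to 3. Without Cr2 the sum was 0.276, 0.401 and 0.41 in gliomas 1 to 3, against 0.188 and 0.263 in normal brain. Cd79b rose by 1.66 ± 0.45 (adjusted p = 0.0295), Mzb1 by 1.35 ± 0.19 (adjusted p = 0.00401) and Cr2 by 1.33 ± 0.37 (adjusted p = 0.0338, limma). Jchain fell by 1.47 ± 0.45 (adjusted p = 0.0444, limma). Group means of Cd79b, Mzb1 and Jchain were dim, at -5.05 to -2.72. The lowest level well above background on each array was -6.42 to -5.30. Without glioma 2, 1 of the 6 rose, and 0 fell without glioma 1 or glioma 3. With 1 normal brain sample left, fewer of the 6 rose, as among all tested genes. Of 13 T and NK cell markers, 8 were tested, 0 rose and 1, Cd4, fell by 1.12 ± 0.16 (adjusted p = 0.00422), while Cd3g, Cd8a, Cd8b1, Cd2 and Ncr1 were detected on fewer than 2 arrays. Their summed level was 3.52 to 5.3 in gliomas, against 5.1 and 5.37 in normal brain, and 2 rose without glioma 3 and 2 fell without normal brain 2. Of 6 tested dendritic cell markers, Itgax rose by 6.69 ± 0.46 (adjusted p = 0.000571, detected in 1 of 2 normal brain samples) and Flt3 fell by 1.86 ± 0.39 (adjusted p = 0.0128). Cd209a, detected in 0 gliomas, was at least 7.67-fold lower in glioma. Its adjusted p of 0.000442 (limma) is for the levels as measured, not for this bound. The summed level of the 6 markers was 71.7 to 108 in gliomas, against 68.5 and 72.3 in normal brain. On each array 93.1% to 98.4% of it came from Siglech alone. Without Siglech it was 2.65, 5.88 and 3.29 in gliomas 1 to 3, against 1.15 and 1.08 in normal brain. Bulk arrays do not show which cells expressed Siglech or Itgax, so neither measures dendritic cells alone here. Xcr1 and Clec9a were well above background on 0 arrays. Without glioma 3, 2 dendritic cell markers rose, and with 1 normal brain sample left fewer fell, as among all tested genes. The part of these cells in the rise of Irf1, Irf7, Irf8 and Irf9 was not tested.

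**Figure D5:**
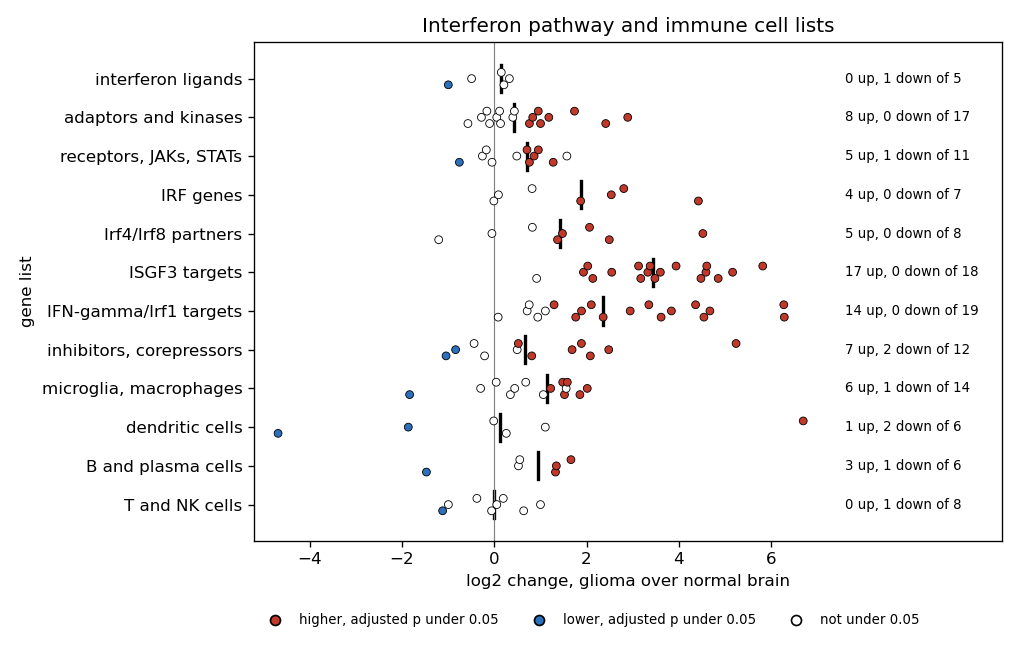
Log2 change, glioma over normal brain, of every tested gene in the interferon pathway and immune cell lists, coloured by call, with the list median as a bar and the counts at the right. The ISGF3 targets have a median of 3.43, and the T and NK cell markers have a median of 0.00.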

How the data were processed

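Per the submitters' processing notes, the arrays were read with Agilent Feature Extraction 10.7.3.1. The deposited scanner files hold an intensity for each spot, background-subtracted by the authors' software per the file headers, and 0 or 1 flags. The authors' deposited value table holds log2 values and equals the log2 processed signal (median difference 0, correlation 1). The arrays share 1 slide and 1 scan, and no spot was saturated.

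Control spots and outlier-flagged spots were left out (23 probes), repeated spots averaged, and the log2 processed signal was centred on each array's 75th percentile. RefSeq accessions named 28026 probes, and the brightest probe stood for a gene. The test, over the 16891 genes that at least 2 arrays measured well above background, used lmFit and eBayes of limma (version 3.58.1, R 4.3.3). It was two-sided, with p-values adjusted by Benjamini-Hochberg. Other software was the R package data.table (version 1.17.8), matplotlib 3.10.9, pandas 2.3.3 and Python 3.11.15. Simulated data with known changes were used to test the scripts. With so few arrays, precision is limited throughout. The normexp alternative planned on mean signals was not run, as the files used hold none. Normexp on median signals, with an offset of 50, was added after seeing the data.

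The members and gene lists were chosen with earlier results of these data known. Named genes were all members, the called genes of each list with the largest changes (at most 3 in the more frequent direction, 2 against it), Stat2, Spi1, Batf, the Irf2 corepressors, the ligands, the nearest tested genes and the 2 most alike profiles. Xist, Ddx3y, Rec8's deviation and genes named as not passing or not detected were chosen after their values were seen. The array design names build mm9, so coordinates are given only for RefSeq's GRCm38.p6 promoter windows, and chromosome order also comes from GRCm38.p6. Some genes covered by this choice are not reported here.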

Additional observations from a re-analysis of the deposited data

How the results depend on the processing

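Irf1, Irf7, Irf8 and Irf9 were called higher under all 13 alternatives, with log2 changes of 1.78 to 2.23, 3.04 to 4.90, 2.66 to 3.16 and 2.46 to 2.89, and highest adjusted p-values of 0.0147, 0.0297, 0.0111 and 0.00861. Irf5 ranged from 0.49 to 1.18 and was called in none (adjusted p 0.055 to 0.3). Irf2 (as reported 0.09) was -0.0199 with the replicate block, -0.0199 to 0.158 when 1 array was left out, and highest in the authors' unscaled table at 0.45 (adjusted p = 0.0697, not called). Irf3 (as reported -0.01) was 0.0149 with normexp, 0.0922 with quantile normalization, 0.35 in the authors' unscaled table and -0.2352 to 0.29 when 1 array was left out (0.29 without glioma 1, 0.017 without normal brain 2). None of these was called. With no filter on dim probes 5 factors were called, the fifth being Irf4, which no array measured well above background. Leaving out 1 array gave 1973 to 4333 genes higher and 2626 to 4992 lower, the lowest counts being those with 1 normal brain sample, which is then assumed to vary like the gliomas. Of the called genes, 46% were higher as reported and 63.7% in the authors' unscaled table, where the median of all genes was 0.31. The replicate block gave 3785 genes higher and 4478 lower and called the same 4 factors. It rests on gliomas 1 and 2, and the replicate numbers did not pair the samples (r = 0.036 across genes). A slide block was not run, as all arrays share 1 slide.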
